A study of Mus musculus with 86 samples.

Results

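Rab GTPase RNAs were described in the cell bodies and neurites of mouse neuronal lines with normal, depleted or mutant TDP-43. Members were the protein-coding mouse genes whose symbol is Rab, a number and at most 1 further letter, without Rab13, after transcript values had been summed to genes. The rule found 58 members among 53664 mouse genes, of which 21896 are protein-coding. Reference annotation was GENCODE vM21 on build GRCm38, and the members lie on 18 chromosomes, with the most, 7, on chromosome 17.

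The study asked how TDP-43, an RNA-binding protein encoded by Tardbp, affects which RNAs reach neurites. Cells were differentiated by serum withdrawal on membranes with pores that admit neurites only, and polyA RNA was sequenced from the upper side (soma) and the lower side (neurite). CAD is a catecholaminergic tumour line and N2A a neuroblastoma line, and every group of a line, genotype and compartment had 3 libraries. Total estimated counts per library ran from 25009904 to 32895542 in CAD, from 22726534 to 31911030 in N2A and from 9783050 to 15870647 in the Q331K experiment.

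CAD and N2A cells had the genotype TetOff TDP-43, in which CRISPR had inactivated the endogenous gene in clonal cells and a transgene that doxycycline turns off supplied the protein. Control samples (minus dox) kept the transgene on, and TDP-43-depleted samples (plus dox) received 2 µg/mL doxycycline for 48 h by their labels, where the study's methods give 1 µg/mL. In the TetOff cells no group received doxycycline without losing the transgene, so the drug and the loss of TDP-43 cannot be told apart within them. In the Q331K experiment, CAD cells that kept the endogenous gene carried a single doxycycline-inducible, HA-tagged transgene, and their genotypes were labelled WT or Q331K TDP-43 overexpression, Q331K being a mutation found in amyotrophic lateral sclerosis. By the study's methods both of these genotypes were given doxycycline, at 1 µg/mL over 7 days, to turn the transgene on. No group had the transgene off, so an increase of TDP-43 over its own level was not tested here. Serum was withdrawn from all of these cells.

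Rab proteins are small GTPases that cycle between a GTP-bound form on membranes and a GDP-bound form in the cytosol. Exchange factors (GEFs) load GTP, GTPase-activating proteins (GAPs) trigger its hydrolysis, prenylation anchors the protein, and GDP dissociation inhibitors return it to the cytosol. Each GTP-bound Rab recruits its own effectors, and so directs budding, transport, tethering or fusion at a given organelle; in neurons the family serves axonal and dendritic transport and the release of synaptic vesicles.

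Levels are given in 2 units. TPM, the share of a library's transcripts corrected for their length, allows genes to be compared within a compartment, and CPM, the share of a library's counts after TMM scaling, compares samples for a single gene. LR is the log2 ratio of neurite to soma CPM. A member was called when its edgeR p, adjusted by the Benjamini-Hochberg method over all tested genes, was under 0.01; every adjusted p is of this kind unless DESeq2 is named. Such p-values measure the spread between these libraries, and nothing in the labels says that replicates were separate cultures.

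Tardbp, the targeted gene, was measured first. In CAD soma its 3 control libraries had 515, 569 and 526 CPM and its depleted libraries 92.7, 90.4 and 98.3 CPM. The groups were far apart, and Tardbp RNA fell by 2.52 on the log2 scale (adjusted p = 3.3e-12). In N2A soma the values were 546, 601 and 590.1 CPM in controls and 160, 168 and 179 CPM in depleted cells, a log2 change of -1.78 (adjusted p = 2.6e-09). Neurites showed the same separation without overlap, with log2 changes of -1.89 in CAD and -1.41 in N2A. In the Q331K experiment the libraries overlapped, at 808, 787 and 715 CPM with the WT transgene and 745, 724 and 806 CPM with Q331K in soma, and the log2 difference of -0.02 (adjusted p = 0.99) was not called. Tardbp LR itself rose in CAD by 0.63 (adjusted p = 0.0050), a call lost without replicate 1, 2 or 3 (adjusted p = 0.023, 0.41 and 0.023).

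Summed over the 58 members, Rab RNAs made up 1746, 2419 and 2584 TPM in the 3 CAD control soma libraries and 638.7, 933 and 1123 TPM in the control neurite libraries. Every soma library was higher than every neurite library. The N2A control libraries had 1323, 1556 and 1833 TPM in soma and 692, 1331 and 1186 TPM in neurites, so that 1 neurite library exceeded the lowest soma library. Cells with the WT transgene had 2718, 2860 and 2760 TPM in soma and 1799, 1518 and 1828 TPM in neurites. Mitochondrially encoded RNAs took 10.5% of TPM in CAD control soma and 16.8% in neurites, against 11.2% and 5.45% in N2A and 11.4% and 20.4% with the WT transgene. Depleted cells carried 11.8% and 17.3% in CAD and 16.8% and 12.6% in N2A, and the part of these shares in the TPM sums was not tested.

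At 1 TPM or more on average were 47 members in CAD control soma and 42 in control neurites, 44 and 40 in N2A, and 47 and 44 with the WT transgene. Rab17, Rab19, Rab38 and Rab7b were at 0 TPM in CAD control soma, and Rab17 and Rab7b in N2A control soma. These members have known roles in epithelial or pigment cells and in immune cells. In WT transgene soma, Rab27b, Rab17, Rab38 and Rab7b were at 0 TPM.

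The most abundant members served the Golgi, the secretory pathway and the late endosome. Rab6a (ENSMUSG00000030704), which acts in traffic at the Golgi, had 173, 240.2 and 256 TPM in CAD control soma, the highest mean of any member, 223 (SD 43.9, n = 3). Rab1a (ENSMUSG00000020149), which directs transport from the endoplasmic reticulum (ER) to the Golgi, had 125, 191 and 191 TPM there, and Rab7 (ENSMUSG00000079477), the late endosome Rab, had 129, 173 and 192 TPM. Rab6a was above both in each of the 3 libraries, while Rab1a and Rab7 changed places between libraries. Rab2a (ENSMUSG00000047187), Rab14 (ENSMUSG00000026878) and Rab11b (ENSMUSG00000077450), of the ER-Golgi interface, the recycling path and the recycling endosome, followed with mean soma levels of 133, 126 and 109 TPM. The 8 most abundant members held 49.0% of the summed Rab TPM in CAD control soma.

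In N2A control soma Rab7 led, with 115, 140.3 and 159 TPM, and Rab6a came next at 113 (SD 16.2, n = 3) TPM. Rab14, Rab11a (ENSMUSG00000004771), Rab11b and Rab1a had mean soma levels between 80.4 and 88.8 TPM, with Rab1a the lowest of them in each library and the other 3 in changing order. WT transgene soma had the order of CAD controls at the top, with Rab6a at 262 (SD 7.63, n = 3) TPM, Rab1a at 243 (SD 7.01, n = 3) TPM and Rab7 at 179.5 (SD 3.30, n = 3) TPM. Those 3 levels did not overlap between members in that experiment. Members of the ER and Golgi group held 33.1% of summed soma Rab TPM in CAD controls and 24.1% in N2A controls, and the exocytosis group 9.63% and 9.91%.

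Neurite over soma ratios were compared after TMM scaling, in which the median of all tested genes is near 0. Filtering on low counts left 50 members to test in CAD, 48 in N2A and 49 in the Q331K experiment, with 8, 10 and 9 left out. The CAD members not tested were Rab17, Rab19, Rab20, Rab25, Rab29, Rab38, Rab42 and Rab7b. Where a count of tested members is given, low-count members had to be well detected in a group to enter it, so such counts describe tested members only.

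In CAD control cells 27 of 50 members were called higher in neurites, where 23.7% of all genes were, and 3 higher in soma, where 17.7% were. The median LR of tested members was 0.34, that of all tested genes -0.02 and that of tested protein-coding genes 0.06. By replicate number the median member LR was 0.34, 0.31 and 0.29. Without replicate 1, 2 or 3 the number of called members went from 30 to 21, 14 and 23. As ratios of deposited TPM, the member median was -1.40 and that of all genes -1.77 (log2), so that members lay above other genes on both scales while the sign of the raw ratio was opposite.

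In N2A control cells 35 of 48 members were called higher in neurites (32.5% of all genes) and 3 higher in soma (26.6%). Their median LR was 0.89, beside -0.03 for all genes and 0.20 for protein-coding genes, and 0.98, 0.87 and 0.67 by replicate number. Upper-quartile scaling shifted the median LR of all N2A genes to -0.33, and members lay 0.92 above all genes under both scalings. In the WT transgene cells 13 of 49 members were called higher in neurites (14.9% of all genes) and 0 higher in soma (12.6%), with 0 at unadjusted p under 0.05 and 0 by DESeq2 in that direction. Member median LR was 0.24 there, against -0.01 for all genes, and the 13 calls went to 3, 6 and 13 without replicate 1, 2 or 3.

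Ratios within depleted and mutant cells were counted in the same way. In depleted CAD cells 26 of 50 members were called higher in neurites (24.6% of all genes) and 2 higher in soma (19.0%), with a member median LR of 0.37, and 0.52, 0.37 and 0.24 by replicate number. In depleted N2A cells the counts were 30 of 48 higher in neurites (25.3%) and 1 higher in soma (13.1%), with a median of 0.49, and 0.65, 0.47 and 0.36 by replicate number. Upper-quartile scaling shifted the median LR of all genes there to -0.15 and that of members to 0.32, which was 0.47 above all genes under both scalings. Q331K cells had 16 of 49 higher in neurites (16.7%) and 0 higher in soma (14.5%), where edgeR gave 1 member at unadjusted p under 0.05 and DESeq2 called 0, with a median of 0.29, and 0.29, 0.30 and 0.21 by replicate number.

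**Figure D1:**
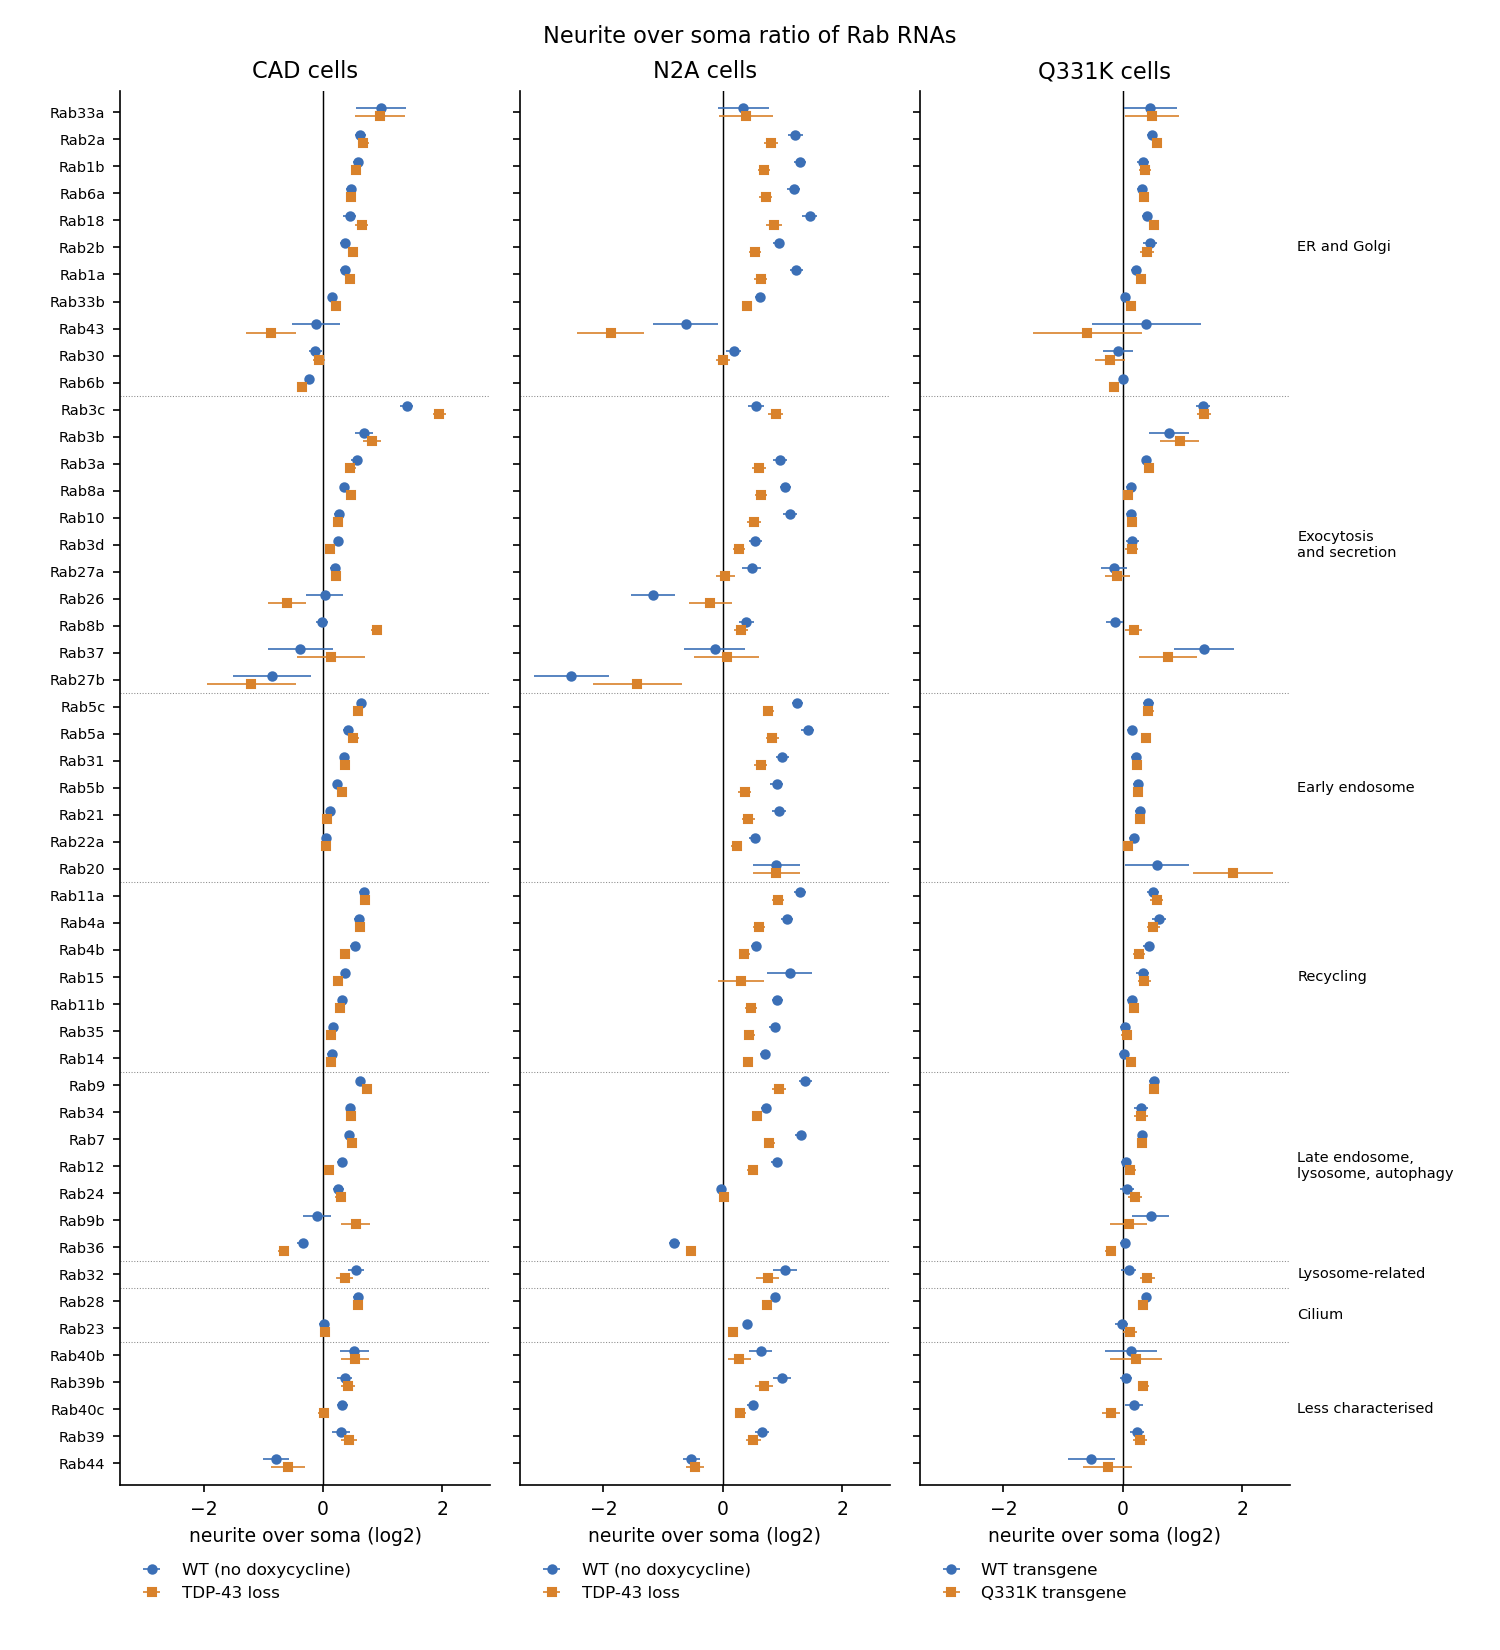
Each point is the LR (log2 neurite over soma) of a tested member, grouped by role, with bars for the standard error of the fit. Panels show CAD, N2A and the Q331K experiment. Circles are control cells and squares are depleted or Q331K cells. In control cells most members lie above 0, and N2A values are the highest for most members. Rab36 and Rab44 lie below 0 in CAD and N2A control cells.

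By role, median LR in CAD controls ranged from 0.25 for exocytosis to 0.38 for ER and Golgi among groups with more than 2 tested members. In N2A controls it was lowest for exocytosis (0.51) and highest for ER and Golgi (1.06). Called higher in neurites, where 23.7% of all genes were in CAD and 32.5% in N2A, were 6 of 11 tested ER and Golgi members in CAD and 7 of 10 in N2A, 4 of 6 and 6 of 7 early endosome members, and 5 of 7 and 6 of 7 recycling members. Of the exocytosis group 5 of 11 were called higher in neurites in CAD and 5 of 10 in N2A, and of the late endosome group 4 of 7 and 4 of 6. Of 5 less characterised members tested in each line, 2 were called in either direction in CAD and 5 in N2A (7172 of 17343 and 10598 of 17912 genes). Among them Rab44 was higher in soma in both lines.

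Among secretory members, Rab3c (ENSMUSG00000021700) stood out in CAD neurites. Rab3c belongs to the Rab3 group, which acts in the docking and release of synaptic and dense-core vesicles. Its CAD control libraries had 30.7, 31.8 and 25.3 CPM in soma and 80.4, 84.7 and 66.6 CPM in neurites. Each neurite library was above each soma library, and Rab3c had the highest LR of the members in CAD, 1.40 (SE 0.11, adjusted p = 4.4e-08). With the WT transgene its LR was also high, 1.34 (SE 0.12, adjusted p = 1.3e-07), from 40.02, 37.9 and 44.6 CPM in soma and 90.5, 108 and 112 CPM in neurites. In N2A controls the Rab3c LR was 0.56 (SE 0.13, adjusted p = 0.0017), lost without replicate 1 or 2 (adjusted p = 0.014 and 0.015), and whether the lines differ in control LR was not tested. Rab3b (ENSMUSG00000003411) had an LR of 0.68 (adjusted p = 0.0015) in CAD, a call lost without replicate 1 (0.028), and 0.77 (adjusted p = 0.080) with the WT transgene, which was not called. Rab27b (ENSMUSG00000024511), a Rab of secretory granules and exosomes, had an LR of -2.54 (SE 0.63, adjusted p = 0.0022) in N2A, higher in soma. That call was lost without replicate 2 or 3 (adjusted p = 0.028 and 0.013). The mean level of Rab27b in N2A control soma was only 0.41 TPM. A member that low may pass the filter through the group where it is higher, so this ratio is a description. Rab26 (ENSMUSG00000079657), of secretory granules, had an LR of -1.17 (adjusted p = 0.011) in N2A, which was not called with TMM and was called by DESeq2, with upper-quartile scaling and with the minimum of 10 counts.

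The highest N2A ratio was that of an ER and Golgi member. Rab18 (ENSMUSG00000073639), which acts at the ER and lipid droplets, had 32.1, 40.4 and 48.2 CPM in N2A control soma and 97.4, 107 and 126 CPM in neurites. All 3 neurite libraries were higher, and its LR of 1.45 (SE 0.13, adjusted p = 1.3e-07) was the highest of the members in N2A. The LR of Rab18 was 0.45 (adjusted p = 0.0033) in CAD, lost without replicate 2 or 3 (adjusted p = 0.018 and 0.011). With the WT transgene it was 0.41 (adjusted p = 0.00094), lost without replicate 1 or 2 (0.035 and 0.018). Rab1b (ENSMUSG00000024870), a close relative of Rab1a, had an LR of 1.29 (adjusted p = 4.7e-08) in N2A and 0.58 (adjusted p = 1.2e-05) in CAD, and Rab2a had 0.62 (adjusted p = 2.5e-05) in CAD and 0.49 (adjusted p = 0.00014) with the WT transgene. Rab6b (ENSMUSG00000032549), the form of Rab6 enriched in neurons, was instead higher in CAD soma, with an LR of -0.24 (adjusted p = 0.0027), lost without replicate 2 or 3 (adjusted p = 0.056 and 0.072). Rab43 (ENSMUSG00000030055), of the ER-Golgi interface, had LR values of -0.12 in CAD and -0.62 in N2A, with neither called and wide spread within groups.

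Several endosomal members were also higher in neurites. Rab5a (ENSMUSG00000017831), which drives early endosome fusion, had 35.8, 42.1 and 50.7 CPM in N2A control soma and 117, 112 and 114 CPM in neurites. The neurite libraries were all higher, with an LR of 1.42 (SE 0.11, adjusted p = 3.0e-08). Rab5c (ENSMUSG00000019173), a relative with the same site of action, had an LR of 0.64 (adjusted p = 2.7e-06) in CAD and 0.43 (adjusted p = 0.0021) with the WT transgene, the latter lost without replicate 1 or 2 (adjusted p = 0.053 and 0.048). Rab9 (ENSMUSG00000079316), which acts between late endosomes and the Golgi, had 0.62 (adjusted p = 2.1e-06) in CAD, 1.38 (adjusted p = 5.8e-08) in N2A and 0.52 (adjusted p = 6.7e-05) with the WT transgene. Rab11a was called in each experiment too, with LR values of 0.69 in CAD, 1.29 in N2A and 0.51 with the WT transgene, the last lost without replicate 1 (adjusted p = 0.033). Rab4a (ENSMUSG00000019478), of rapid recycling from early endosomes, had 0.60 (adjusted p = 0.00043) with the WT transgene, lost without replicate 1 (adjusted p = 0.013), and 0.61 (adjusted p = 1.4e-05) in CAD.

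Rab7 had 146, 165 and 179 CPM in N2A control soma and 416, 405 and 386 CPM in neurites, an LR of 1.30 (SE 0.0904, adjusted p = 1.3e-08). All N2A neurite libraries lay well above the soma libraries. Rab36 (ENSMUSG00000020175), a late endosome member, went the other way in both lines, with an LR of -0.81 (SE 0.0857, adjusted p = 6.6e-07) in N2A and -0.34 (SE 0.0954, adjusted p = 0.0064) in CAD. Its CAD call was lost without replicate 2 or 3 (adjusted p = 0.027 and 0.069). Rab44 (ENSMUSG00000064147), a large Rab with extra domains that has been described in blood cells, was also higher in soma, with -0.79 (adjusted p = 0.0074) in CAD and -0.53 (adjusted p = 0.0029) in N2A. In CAD that call was lost without replicate 1, 2 or 3 (adjusted p = 0.024, 0.062 and 0.039), and in N2A without replicate 2 or 3 (0.16 and 0.012). Rab24 (ENSMUSG00000034789), linked to autophagy, lay near 0 in N2A at -0.03 (adjusted p = 0.72); upper-quartile scaling and the minimum of 10 counts called it higher in soma.

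Other members named by the rule were spread over the roles. With the WT transgene, Rab2b (ENSMUSG00000022159) of the Golgi had an LR of 0.45 (adjusted p = 0.0050), a call lost without replicate 1, 2 or 3 (adjusted p = 0.037, 0.043 and 0.011). Rab23 (ENSMUSG00000004768), which acts in Hedgehog signalling at the cilium, had the LR -0.02 and Rab28 (ENSMUSG00000029128), a cilium and photoreceptor Rab, 0.39 (adjusted p = 0.00042), lost without replicate 1 or 2 (0.022 and 0.016). The lowest LR values there among members at 1 TPM or more were -0.15 for Rab27a, -0.14 for Rab8b and -0.07 for Rab30, and none was called.

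Levels in depleted cells were compared with controls in both compartments. In CAD soma 5 of 50 members were called higher after depletion (11.2% of all genes) and 7 lower (11.6%), and in CAD neurites 6 higher (11.8%) and 8 lower (13.5%). In N2A soma 4 of 48 members were called higher (10.9%) and 2 lower (5.15%), and in N2A neurites 3 higher (6.48%) and 4 lower (5.1%). Member medians were -0.03 in CAD soma, -0.06 in CAD neurites, 0.16 in N2A soma and -0.21 in N2A neurites (log2). The same medians over all tested genes were 0.00, 0.00, -0.02 and -0.01. In bulk RNA, fewer cells with a transcript and less of it per cell cannot be told apart.

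Calls depended on single libraries in number. Without replicate 1, 2 or 3 the CAD soma calls went from 12 to 9, 5 and 6, the CAD neurite calls from 14 to 11, 9 and 11, the N2A soma calls from 6 to 6, 1 and 5, and the N2A neurite calls from 7 to 4, 1 and 3. Higher and lower CAD neurite calls were 6 and 8 with TMM, 8 and 9 by DESeq2 and 9 and 8 with upper-quartile scaling. In N2A soma they were 4 and 2 with TMM, 9 and 2 by DESeq2, and 4 and 4 with upper-quartile scaling, which shifted the median of all genes to -0.12 while members stayed 0.19 above it. N2A neurite calls were 3 and 4 with TMM, 3 and 8 by DESeq2, and 3 and 6 with upper-quartile scaling. With the replicate number as a term the higher and lower calls were 7 and 2 in N2A soma and 3 and 7 in N2A neurites.

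**Figure D2:**
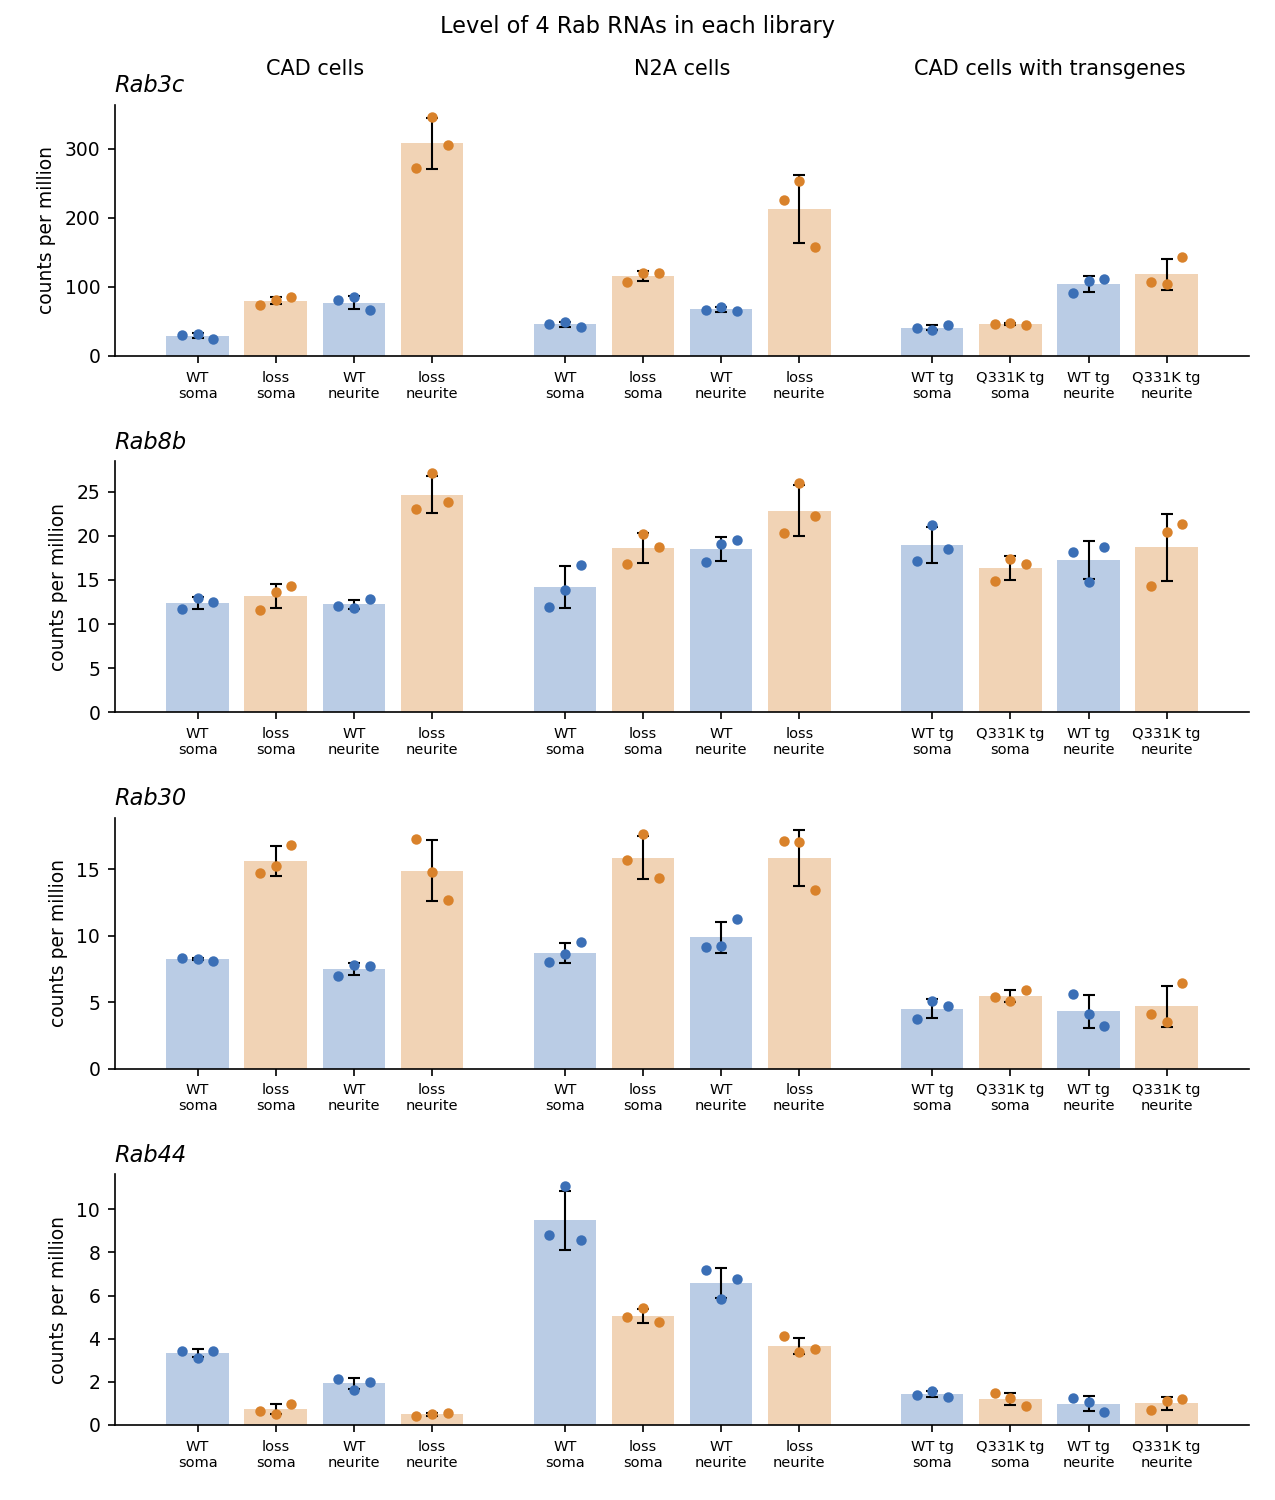
CPM of Rab3c, Rab8b, Rab30 and Rab44 in soma and neurites of control and TDP-43-depleted cells, and of WT and Q331K transgene cells. Bars are means, whiskers standard deviations over 3 libraries and points the libraries. Rab3c and Rab30 are higher and Rab44 lower after depletion in both lines, while Rab8b is raised in CAD neurites.

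The largest increases were those of Rab3c. In CAD soma Rab3c had 30.7, 31.8 and 25.3 CPM in controls and 74.4, 80.8 and 84.9 CPM after depletion. In CAD neurites it went from 80.4, 84.7 and 66.6 CPM to 272, 346 and 306 CPM. Neither pair of groups overlapped, and Rab3c rose by 1.45 (SE 0.11, adjusted p = 5.3e-08) in soma and 2.00 (SE 0.11, adjusted p = 1.3e-09) in neurites on the log2 scale. In N2A soma the values were 46.7, 49.4 and 41.5 CPM in controls and 107, 119.6 and 119.6 CPM after depletion, and in N2A neurites 66.7, 71.4 and 64.6 CPM and 226, 254 and 158 CPM. All depleted N2A libraries were higher than all controls, with log2 changes of 1.33 (SE 0.13, adjusted p = 5.3e-06) and 1.65 (SE 0.13, adjusted p = 6.7e-07). These 4 calls were made under each of the alternatives tried, the replicates left out in turn included.

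Rab8b (ENSMUSG00000036943), which directs polarised delivery from the Golgi and recycling endosomes to the plasma membrane, changed in CAD neurites. Its soma values of 11.7, 12.98 and 12.5 CPM in controls and 11.7, 13.6 and 14.3 CPM after depletion overlapped, with a log2 difference of 0.09 (adjusted p = 0.51) that was not called. Neurite values were 12.01, 11.8 and 12.8 CPM and 23.1, 27.1 and 23.9 CPM. Here the depleted libraries were all higher, and Rab8b rose by 1.01 (SE 0.0937, adjusted p = 4.7e-07) under every alternative. N2A gave 17.03, 19.04 and 19.6 CPM in control and 20.4, 25.97 and 22.3 CPM in depleted neurites, without overlap, and a log2 difference of 0.30 (adjusted p = 0.095) that was not called. The N2A soma difference of Rab8b, 0.39 (adjusted p = 0.027), was not called, but was by DESeq2 (0.43 (adjusted p = 0.0099)), with no filter on low counts (0.42 (adjusted p = 0.0021)) and with the replicate number as a term (0.39 (adjusted p = 0.0058)).

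Rab27a (ENSMUSG00000032202), which docks secretory granules and melanosomes, had 22.96, 24.5 and 24.3 CPM in CAD control soma and 38.3, 38.7 and 39.2 CPM after depletion. The depleted libraries were all higher and close to each other, a rise of 0.70 (SE 0.0815, adjusted p = 6.1e-06). In CAD neurites Rab27a rose by 0.72 (SE 0.0830, adjusted p = 4.8e-06), from 28.9, 27.2 and 26.1 CPM to 51.3, 44.4 and 39.7 CPM. In N2A soma it went from 21.9, 26.9 and 29.6 CPM to 43.8, 50.04 and 43.2 CPM, without overlap, a change of 0.80 (SE 0.16, adjusted p = 0.0016) that was lost without replicate 1 or 2 (adjusted p = 0.011 and 0.040). N2A neurite libraries of Rab27a overlapped, and their difference of 0.37 (adjusted p = 0.11) was not called.

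Rab3d (ENSMUSG00000019066), the Rab3 form of zymogen and other secretory granules, moved opposite to Rab3c. It had 25.6, 27.4 and 28.2 CPM in CAD control soma and 20.7, 21.5 and 21.4 CPM after depletion, and 32.2, 31.9 and 32.5 CPM and 24.2, 22.7 and 22.5 CPM in neurites. Both pairs were apart, with changes of -0.35 (SE 0.0652, adjusted p = 0.00056) in soma and -0.48 (SE 0.0666, adjusted p = 3.3e-05) in neurites. The soma call was lost without replicate 2 or 3 (adjusted p = 0.030 and 0.015). In N2A the Rab3d differences were 0.09 in soma and -0.18 in neurites, not called. Rab3a (ENSMUSG00000031840), the main synaptic vesicle form, was not called in any of these 4 comparisons, with log2 differences from -0.02 to 0.37.

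Of 11 tested ER and Golgi members in CAD and 10 in N2A, edgeR called Rab30 (ENSMUSG00000030643) alone for a change in level, a rise in each of the 4 comparisons (11.2% and 11.8% of all genes in CAD soma and neurites, 10.9% and 6.48% in N2A). Rab30 is a Golgi protein needed for normal Golgi structure. CAD soma libraries had 8.32, 8.28 and 8.14 CPM in controls and 14.8, 15.2 and 16.9 CPM after depletion, and neurite libraries 6.98, 7.84 and 7.74 CPM and 17.3, 14.8 and 12.7 CPM. Depleted libraries were higher throughout, and Rab30 rose by 0.92 (SE 0.10, adjusted p = 3.4e-06) and 0.99 (SE 0.11, adjusted p = 3.0e-06) under every alternative. In N2A soma it went from 8.03, 8.61 and 9.50 CPM to 15.7, 17.6 and 14.4 CPM and in N2A neurites from 9.18, 9.22 and 11.2 CPM to 17.1, 17.1 and 13.5 CPM. Neither pair overlapped, and the rises were 0.87 (SE 0.12, adjusted p = 0.00012) and 0.68 (SE 0.12, adjusted p = 0.0010). Leaving out replicate 2 lost the soma call (adjusted p = 0.011), and leaving out replicate 1 or 2 the neurite call (0.025 and 0.072). The other tested ER and Golgi members ranged from -0.28 to 0.27 in CAD soma, -0.48 to 0.26 in CAD neurites, -0.61 to 0.59 in N2A soma and -0.66 to -0.10 in N2A neurites. With Rab30 included, 3, 4, 5 and 6 of the group were at unadjusted p under 0.05 in that order (40.4%, 44.2%, 41.9% and 32.3% of all genes). DESeq2 called 1, 2, 1 and 1 of the group (4475 and 4829 of 17343 genes in CAD, 3891 and 2766 of 17912 in N2A).

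Recycling members moved in both directions. Rab11a, which sorts cargo through the recycling endosome and along axons and dendrites, had 31.7, 34.6 and 33.5 CPM in CAD control soma and 41.5, 48.8 and 51.5 CPM after depletion. Its neurite values were 51.5, 52.3 and 57.04 CPM and 82.6, 80.3 and 68.1 CPM. No library of the depleted groups fell within the controls, and Rab11a rose by 0.51 (SE 0.0865, adjusted p = 0.00026) in soma and 0.52 (SE 0.0861, adjusted p = 0.00017) in neurites, both lost without replicate 2 (adjusted p = 0.015 and 0.020). Its relative Rab11b fell, from 96.8, 102 and 104 CPM to 82.4, 86.5 and 88.9 CPM in soma and from 132, 124 and 120.4 CPM to 102, 106 and 105 CPM in neurites. The Rab11b groups did not overlap but lay close, with changes of -0.23 (SE 0.0573, adjusted p = 0.0053) and -0.27 (SE 0.0576, adjusted p = 0.0017). In soma the Rab11b call was lost without replicate 1, 2 or 3 (adjusted p = 0.019, 0.12 and 0.032), and in neurites without replicate 1 or 2 (0.028 and 0.050).

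Rab4b (ENSMUSG00000053291), of rapid endosomal recycling, had 35.7, 37.5 and 40.1 CPM in CAD control soma and 23.2, 27.6 and 23.6 CPM after depletion, and 55.6, 54.2 and 53.6 CPM and 35.8, 29.1 and 31.5 CPM in neurites. Depleted libraries were lower in both compartments, with changes of -0.61 (SE 0.0838, adjusted p = 3.6e-05) and -0.76 (SE 0.0844, adjusted p = 3.3e-06) that no alternative removed. In N2A neurites Rab4b went from 33.0, 32.0 and 30.8 CPM to 26.1, 22.97 and 24.4 CPM. Those groups were also apart, and the change of -0.39 (SE 0.0844, adjusted p = 0.0043) was lost without replicate 1, 2 or 3 (adjusted p = 0.013, 0.32 and 0.044). Rab35 (ENSMUSG00000029518), of rapid recycling and neurite outgrowth, fell in CAD neurites from 52.4, 51.7 and 55.7 CPM to 44.4, 44.6 and 45.97 CPM, a change of -0.24 (SE 0.0616, adjusted p = 0.0054), lost without replicate 1, 2 or 3 (0.046, 0.059 and 0.050).

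In the late endosome and lysosome group, Rab12 (ENSMUSG00000023460), which sends transferrin receptor to lysosomes, had 24.8, 26.8 and 25.4 CPM in CAD control soma and 19.03, 22.2 and 21.5 CPM after depletion. Its neurite libraries had 31.7, 34.3 and 29.95 CPM and 22.3, 22.5 and 22.2 CPM. Depleted libraries were lower in both, and the changes were -0.29 (SE 0.0756, adjusted p = 0.0068) and -0.52 (SE 0.0772, adjusted p = 6.4e-05). The soma call was lost without replicate 1, 2 or 3 (adjusted p = 0.056, 0.060 and 0.035). Rab34 (ENSMUSG00000002059), which positions lysosomes and acts in cilium formation, fell in CAD soma from 43.6, 42.7 and 50.5 CPM to 36.1, 37.98 and 39.7 CPM, a change of -0.26 (SE 0.0668, adjusted p = 0.0058), lost without replicate 1, 2 or 3 (0.041, 0.049 and 0.044). In neurites Rab34 had 60.5, 62.96 and 63.3 CPM and 52.04, 52.2 and 53.5 CPM, a change of -0.24 (adjusted p = 0.0092), also lost without replicate 1, 2 or 3 (0.042, 0.13 and 0.023).

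In N2A, Rab7 went from 146, 165 and 179 CPM in control soma to 196, 224 and 239 CPM after depletion. All depleted soma libraries were higher, and Rab7 rose by 0.43 (SE 0.0893, adjusted p = 0.0024), lost without replicate 2 or 3 (adjusted p = 0.096 and 0.011). Its N2A neurite difference, -0.10 (adjusted p = 0.51), was not called. Rab36 rose in N2A neurites, from 11.3, 11.6 and 11.9 CPM to 15.4, 13.98 and 17.3 CPM, by 0.42 (SE 0.0869, adjusted p = 0.0028), lost without replicate 1, 2 or 3 (0.030, 0.052 and 0.039). Rab32 (ENSMUSG00000019832), of melanosomes and other lysosome-related organelles, fell in CAD. It went from 4.98, 6.58 and 6.39 CPM to 3.52, 4.13 and 4.68 CPM in soma and from 7.77, 9.35 and 9.27 CPM to 5.20, 5.73 and 4.95 CPM in neurites. Groups did not overlap, with changes of -0.54 (SE 0.14, adjusted p = 0.0061) and -0.73 (SE 0.14, adjusted p = 0.00055), both lost without replicate 2 or 3 (soma 0.12 and 0.027, neurites 0.015 and 0.015).

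Rab28 fell in N2A. Its soma libraries had 41.3, 45.8 and 47.5 CPM in controls and 30.7, 34.4 and 37.3 CPM after depletion, and its neurite libraries 80.98, 82.2 and 84.1 CPM and 57.3, 56.7 and 57.5 CPM. The neurite groups were tight and far apart, and the changes were -0.39 (SE 0.0809, adjusted p = 0.0023) in soma and -0.53 (SE 0.0796, adjusted p = 0.00023) in neurites. Without replicate 2 or 3 the soma call was lost (adjusted p = 0.30 and 0.036), and without replicate 2 the neurite call (0.10). In CAD the Rab28 differences were 0.05 and 0.05, and neither was called.

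Among less characterised members, Rab44 had the largest decrease. CAD soma libraries had 3.45, 3.12 and 3.42 CPM in controls and 0.665, 0.530 and 0.996 CPM after depletion, and CAD neurite libraries 2.12, 1.64 and 2.02 CPM and 0.409, 0.517 and 0.537 CPM. The groups were well apart at low levels, and Rab44 changed by -2.18 (SE 0.24, adjusted p = 2.8e-06) and -1.97 (SE 0.27, adjusted p = 3.0e-05) under every alternative. In N2A it went from 8.81, 11.1 and 8.56 CPM to 5.03, 5.41 and 4.77 CPM in soma and from 7.17, 5.82 and 6.75 CPM to 4.11, 3.40 and 3.52 CPM in neurites. Again no libraries overlapped, with changes of -0.90 (SE 0.14, adjusted p = 0.00022) and -0.84 (SE 0.14, adjusted p = 0.00065). Without replicate 2 the N2A soma call was lost (adjusted p = 0.031), and without replicate 2 or 3 the neurite call (0.021 and 0.023).

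Rab39b (ENSMUSG00000031202), a neuronal Rab whose human gene is mutated in intellectual disability with early parkinsonism, rose in CAD. It went from 19.96, 26.1 and 21.97 CPM to 26.9, 34.9 and 34.3 CPM in soma and from 27.4, 32.5 and 27.5 CPM to 44.6, 45.9 and 37.4 CPM in neurites. Neither pair overlapped, and the rises were 0.50 (SE 0.12, adjusted p = 0.0037) and 0.55 (SE 0.12, adjusted p = 0.0017). The soma call was lost without replicate 2 or 3 (adjusted p = 0.014 and 0.057) and the neurite call without replicate 3 (0.0104). In N2A neurites Rab39b had 48.5, 57.6 and 58.8 CPM in controls and 34.2, 42.5 and 37.3 CPM after depletion, with depleted libraries lower and a difference of -0.53 (adjusted p = 0.020) that was not called. It was called without replicate 1 (-0.54 (adjusted p = 0.0049)), by DESeq2 (0.0029), with no filter on low counts (1.1e-05) and with the replicate number as a term (0.00080). Rab39 (ENSMUSG00000055069), its paralogue, fell in N2A neurites from 11.1, 12.3 and 12.95 CPM to 7.68, 8.85 and 8.72 CPM, a change of -0.52 (SE 0.12, adjusted p = 0.0057), lost without replicate 1, 2 or 3 (0.015, 0.17 and 0.092).

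Early endosome members, which sort cargo just after endocytosis, had 0 calls by edgeR in any of these 4 comparisons. Over all genes edgeR called 3953 and 4385 of 17343 in CAD soma and neurites, and 2877 and 2074 of 17912 in N2A. With only 6 members tested in CAD and 7 in N2A, the 0 calls are a description of few members. Their log2 differences ran from -0.19 to 0.17 in CAD soma and from -0.20 to 0.23 in CAD neurites, and from -0.07 to 0.31 in N2A soma and -0.37 to -0.08 in N2A neurites. At unadjusted p under 0.05 were 4 of 6 early endosome members in CAD soma, 4 of 6 in CAD neurites, 2 of 7 in N2A soma and 3 of 7 in N2A neurites (40.4%, 44.2%, 41.9% and 32.3% of all genes), and DESeq2 called 0, 1, 1 and 1.

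**Figure D3:**
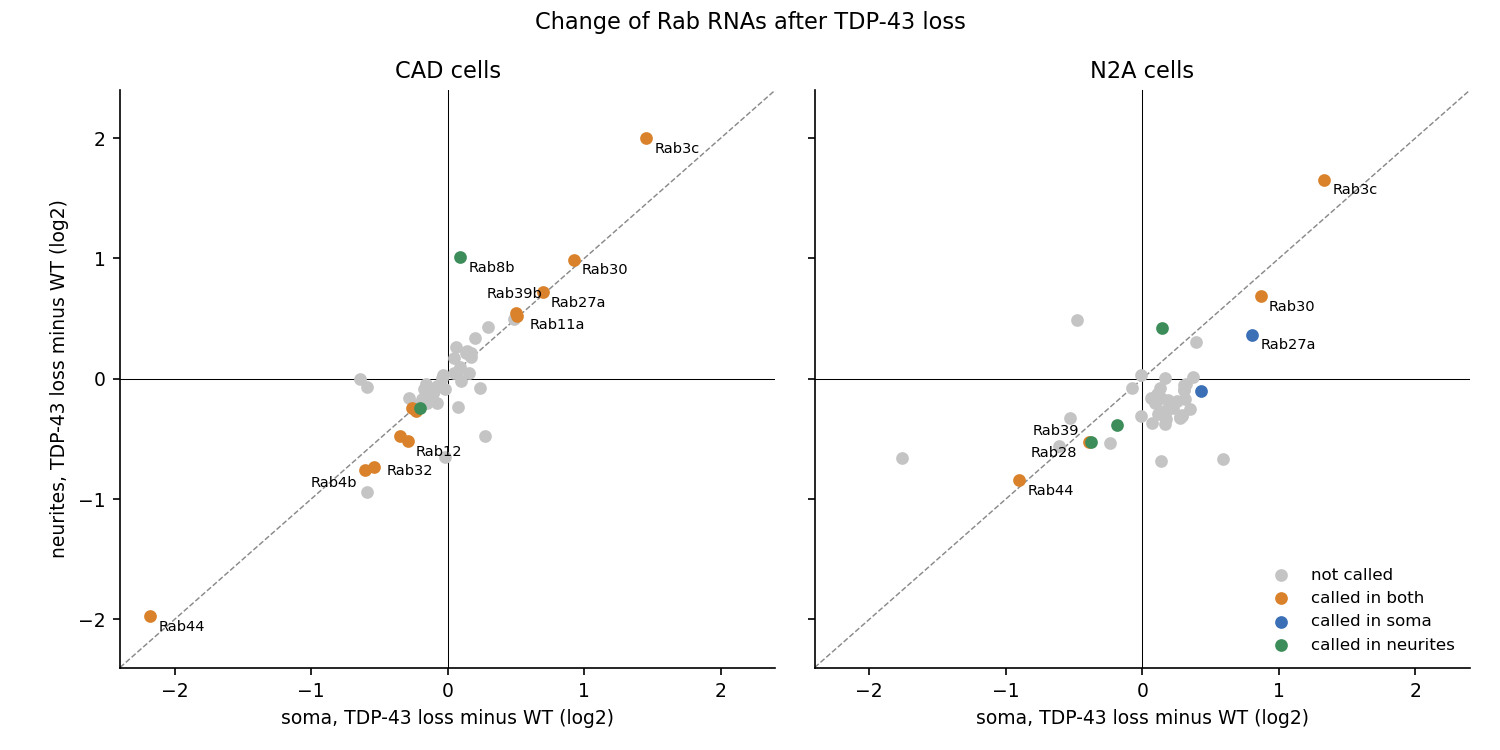
Log2 change after TDP-43 depletion in soma (x axis) against neurites (y axis) for each tested member in CAD and N2A, with the diagonal dashed. Rab3c and Rab44 lie at the ends of the diagonal in both lines, and Rab8b lies above it in CAD.

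LR changes called by edgeR were few among all genes too, at 75 of 17343 in CAD and 18 of 17912 in N2A. The study tested these changes with another tool, xtail, and reported many more changed RNAs in both lines. As xtail was not run here, the counts below describe the edgeR and DESeq2 tests and not how many RNAs changed. In CAD 1 of 50 members was called for a higher LR after depletion (0.225% of all genes) and 0 for a lower one (0.208%), where edgeR gave 2 members at unadjusted p under 0.05 and DESeq2 called 0. The called member was Rab8b, whose LR was -0.02 (adjusted p = 0.90) in controls and 0.90 (adjusted p = 5.4e-07) after depletion. Its LR rose by 0.92 (SE 0.13, adjusted p = 0.0014), a call kept without replicate 1 (0.91 (adjusted p = 0.0082)) and lost without replicate 2 (0.81 (adjusted p = 0.21)) or 3 (1.04 (adjusted p = 0.0104)). The next highest LR changes were 0.55 (adjusted p = 0.13) for Rab3c, which was called with no filter on low counts only (0.56 (adjusted p = 0.0018)), and 0.20 (adjusted p = 0.73) for Rab18. The lowest were -0.75 (adjusted p = 0.72) for Rab43, -0.31 (adjusted p = 0.42) for Rab36 and -0.31 (adjusted p = 0.39) for Rab40c (ENSMUSG00000025730), a Rab with a domain that recruits ubiquitin ligases, and none was called. Rab43 libraries varied within groups, with 6.18, 6.32 and 0.619 CPM in depleted CAD neurites.

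In N2A edgeR called 0 of 48 members for a higher LR (0.0893% of all genes) and 0 for a lower one (0.0112%), with 24 members at unadjusted p under 0.05 (31.2% of all genes). DESeq2 called 13 members, all lower, and 1653 of the 17912 genes in either direction. LR differences after depletion were below 0 for 40 of 48 members, and their median was -0.35 against -0.01 for all genes and -0.11 for protein-coding genes. Upper-quartile scaling shifted the median of all genes to 0.11, and members then had a median of -0.23, which was 0.34 below all genes under both scalings. The lowest values among members at 1 TPM or more were -1.25 (adjusted p = 0.28) for Rab43, -0.60 (adjusted p = 0.041) for Rab10 (ENSMUSG00000020671), which inserts membrane during axon growth, and -0.60 (adjusted p = 0.038) for Rab1a. The highest were 0.97 (adjusted p = 0.22) for Rab26, 0.32 (adjusted p = 0.25) for Rab3c and 0.28 (adjusted p = 0.13) for Rab36. DESeq2 called Rab10 (-0.65 (adjusted p = 0.0022)) and Rab1a (-0.64 (adjusted p = 0.0013)) lower. Summed nuclear RNAs, most of them Malat1, differed between N2A soma libraries, at 653, 306 and 216 TPM in controls and 480, 146 and 100.2 TPM after depletion, and mitochondrial RNAs took 5.45% of TPM in control and 12.6% in depleted N2A neurites. Their part in the N2A LR differences was not tested.

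The lines were compared in a joint fit of 51 tested members. For the difference in LR change, CAD minus N2A, edgeR called 0 members higher in CAD (0.102% of all genes) and 0 lower (0.102%). At unadjusted p under 0.05 were 21 members (18.5% of all genes), and DESeq2 called 2 (292 of 19700 genes). The smallest adjusted p was that of Rab8b, with a difference of 1.03 (SE 0.24, adjusted p = 0.045) that was not called. It was called by DESeq2 (adjusted p = 0.0029), with no filter on low counts (0.00069) and with the replicate number as a term (0.0073), and not without replicate 1, 2 or 3 (0.15, 0.65 and 0.071). Tests of the soma and neurite changes between lines were added after the data had been seen. For soma, CAD minus N2A, 0 members were called above 0, here termed upward (2.64% of all genes), and 5 below 0, termed downward (7.87%), with 3 at unadjusted p under 0.05 and 2 by DESeq2 in the upward direction. For neurites, 4 members were called upward (2.94%) and 3 downward (6.23%).

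These counts moved with the scaling and with single libraries. Upper-quartile scaling, which shifted the median soma difference of all genes to 0.17, gave 3 upward and 2 downward soma calls, and DESeq2 gave 2 and 8. For neurites the upward and downward calls were 10 and 3 with upper-quartile scaling and 8 and 4 by DESeq2. Without replicate 1, 2 or 3 the soma calls went from 5 to 5, 0 and 1, and the neurite calls from 7 to 2, 0 and 3. The members concerned were Rab44, Rab12, Rab34, Rab35 and Rab3d in soma, and Rab39b, Rab39, Rab8b and Rab28 (upward) and Rab44, Rab36 and Rab12 (downward) in neurites. Rab39b had the largest upward difference, 1.03 (SE 0.22, adjusted p = 0.0018), with a rise in CAD neurites and a difference below 0, not called, in N2A neurites. Rab44 had the largest downward difference, -1.35 (SE 0.25, adjusted p = 0.00040) in soma, where it fell in both lines, by more in CAD.

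Q331K TDP-43 was compared with the WT transgene. In soma edgeR called 0 of 49 members higher (0.0% of all genes) and 0 lower (0.0%), with 3 members at unadjusted p under 0.05 and 0 by DESeq2. Neurites gave 0 higher (0.0%) and 0 lower (0.0%), with 3 members at unadjusted p under 0.05 and 0 by DESeq2. For the LR change the counts were 0 higher (0.0%) and 0 lower (0.0%), with 2 at unadjusted p under 0.05 and 0 by DESeq2. Over all 13940 genes DESeq2 called 0 in soma, 10 in neurites and 0 for the LR change. By edgeR 7.14%, 9.84% and 4.34% of all genes were at unadjusted p under 0.05 in that order. Member medians were 0.04 in soma, 0.04 in neurites and 0.03 for the LR change.

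Rab3c, the member with the largest rise after depletion, had 90.5, 108 and 112 CPM in WT transgene neurites and 107, 104 and 144 CPM in Q331K neurites. The groups overlapped, and the difference of 0.19 (adjusted p = 0.62) was not called. Rab8b had 18.2, 14.8 and 18.8 and 14.3, 20.5 and 21.3 CPM in neurites, also overlapping, with a difference of 0.11 (adjusted p = 0.85). The smallest adjusted p of a member was 0.193, for Rab39b in neurites, whose log2 difference was 0.42. In Q331K cells the highest called LR was that of Rab3c, 1.36 (adjusted p = 9.7e-08), and the next were those of Rab11a (0.57), Rab2a (0.57), Rab9 (0.53) and Rab18 (0.52). Without replicate 1 the Rab11a and Rab18 calls were lost (adjusted p = 0.013 and 0.0101).

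LR in depleted cells kept Rab3c on top in CAD, at 1.94 (SE 0.11, adjusted p = 9.7e-10), followed by Rab8b at 0.90 (adjusted p = 5.4e-07) and Rab3b at 0.82 (adjusted p = 0.00020). The lowest called values in depleted CAD cells were -0.66 (adjusted p = 2.4e-05) for Rab36 and -0.35 (adjusted p = 9.4e-05) for Rab6b, the latter lost without replicate 2 (adjusted p = 0.019). In depleted N2A cells Rab9 had the highest called LR, 0.94 (adjusted p = 6.2e-06), then Rab11a at 0.92 (adjusted p = 2.3e-06), Rab3c at 0.88 (adjusted p = 4.3e-05) and Rab18 at 0.86 (adjusted p = 5.0e-05). Calls for Rab3c and Rab18 were lost without replicate 2 (adjusted p = 0.01005 and 0.016). Rab36, with -0.53 (adjusted p = 7.2e-05), was the 1 member called higher in depleted N2A soma, and lost the call without replicate 2 (0.015).

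Transcripts of a gene were compared as shares of its summed TPM. Rab3c has 5 annotated transcripts. In CAD control soma Rab3c-203 held 49.5, 46.4 and 54.7% and after depletion 34.9, 29.7 and 34.8%. Rab3c-201 held 23.2, 24.0 and 20.8% in those controls and 46.9, 49.0 and 50.5% after depletion. The groups did not overlap for either transcript, and the 2-sided exact permutation p of Rab3c-203 was 0.1, the smallest that 3 against 3 libraries can give. In CAD neurites Rab3c-201 went from 42.98, 40 and 28.9% to 71.3, 76.1 and 78.7%, and in N2A neurites from 6.89, 6.77 and 7.34% to 45.7, 46.7 and 36.2%. Rab3c-203 held 56.6, 60.0 and 59.5% in N2A control neurites and 33.4, 34.7 and 34.6% after depletion. Q331K and WT transgene libraries overlapped for both transcripts in soma and neurites.

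Of 37 members followed that have more than 1 annotated transcript, 2 shifted its share by over 20 percentage points without overlap, Rab3c and Rab2b. The Rab2b shift was in the Q331K experiment, where Rab2b-201 held 34.3, 95.0 and 76.0% in WT transgene soma and 95.7, 95.5 and 98.4% with Q331K. A single WT transgene library, replicate 1, was far below the others. The most abundant transcript also differed between genotypes for Rab11a, Rab12, Rab23, Rab26, Rab40c and Rab43. Rab8b has 1 annotated transcript, as have Rab10, Rab18, Rab1b, Rab2a, Rab31, Rab33a, Rab39, Rab39b and Rab5a.

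Annotated 3′ UTRs of members were searched for the 5-base motif GUGUG, its shifted form UGUGU and the variant GUAUG, all of the kind TDP-43 binds, with overlapping matches counted. At least 1 motif was found in the longest 3′ UTR of 52 of 58 members (89.7%) and of 80.5% of 21021 protein-coding genes. Median density was 4.59 motifs per kb in members and 4.21 in all genes, and median 3′ UTR length 1950 and 961 bases. Among genes tested in CAD the median density was 4.59 in members and 4.62 in all genes, and 90% and 86.3% had a motif. A density of 10 per kb or more was found in 12.1% of members and 12.7% of protein-coding genes. Members without a motif were Rab24, Rab33a, Rab34, Rab42, Rab44 and Rab4b. A match is a description of letters and not a sign of binding. Densities are those of the longest annotated 3′ UTR of a gene, and which transcripts the cells used was not taken into account.

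Among members at 1 TPM or more in CAD, Rab3c had the densest 3′ UTR, with 16.5 motifs per kb over 7628 bases. Rab8b had 15.5 per kb over 4055 bases, Rab40b (ENSMUSG00000025170), which carries the same ubiquitin ligase domain as Rab40c, 10.96 per kb over 912 bases, and Rab30 10.4 per kb over 8596 bases. Alternating runs of G and U of at least 40 bases were in 3 of 58 members (5.17%), Rab8b (51 bases), Rab30 (44) and Rab3c (43), and in 1.53% of all genes. For each of these 4 densest members a stretch of 30 bases is shown. It holds all or the start of the longest alternating run of G and U in that 3′ UTR, and was not chosen for its number of motifs. The stretches are shown because Rab3c, Rab8b and Rab30 had the largest rises in CAD neurites while Rab40b had no called change. Each is written 5′ to 3′ as RNA from GENCODE vM21 and GRCm38, and capitals mark bases in a motif. The stretch of Rab3c is chr13:110056842-110056871, minus strand, that of Rab8b chr9:66845285-66845314, minus strand, that of Rab30 chr7:92843743-92843772, plus strand, and that of Rab40b chr11:121356692-121356721, minus strand.
Rab3c: cuguggcuUGUGUGUGUGUGUGUGUGUGUG
Rab8b: aucuagaaGUGUGUGUGUGUGUGUGUGUGU
Rab30: aguaauauUGUGUGUGUGUGUGUGUGUGUG
Rab40b: uguucuagacuUGUGUGUGcaaagggaaaa

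Rab3c, Rab8b and Rab30 stretches hold 18 motif matches each, and that of Rab40b 4. The log2 differences of Rab40b, not called, were 0.49 in CAD soma and 0.50 in neurites. Rab18, next in density with 10.05 motifs per kb over 5774 bases, was not called for a change in level in CAD either. Across the 50 members tested in CAD, the Spearman correlation of motif density with the change after depletion was 0.41 in soma and 0.54 in neurites. Over 13667 tested genes with a 3′ UTR it was 0.07 and 0.09. For 3′ UTR length in place of density it was 0.23 and 0.26 over the members. N2A gave 0.29 in soma and 0.27 in neurites over 48 members, and 0.02 and 0.03 over 13643 genes. With 3′ UTR length it gave 0.20 in soma and -0.07 in neurites over the members. For the LR change the correlation with density over members was 0.26 in CAD and -0.01 in N2A. Genes of a library are not independent replicates, and these values are descriptions.

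**Figure D4:**
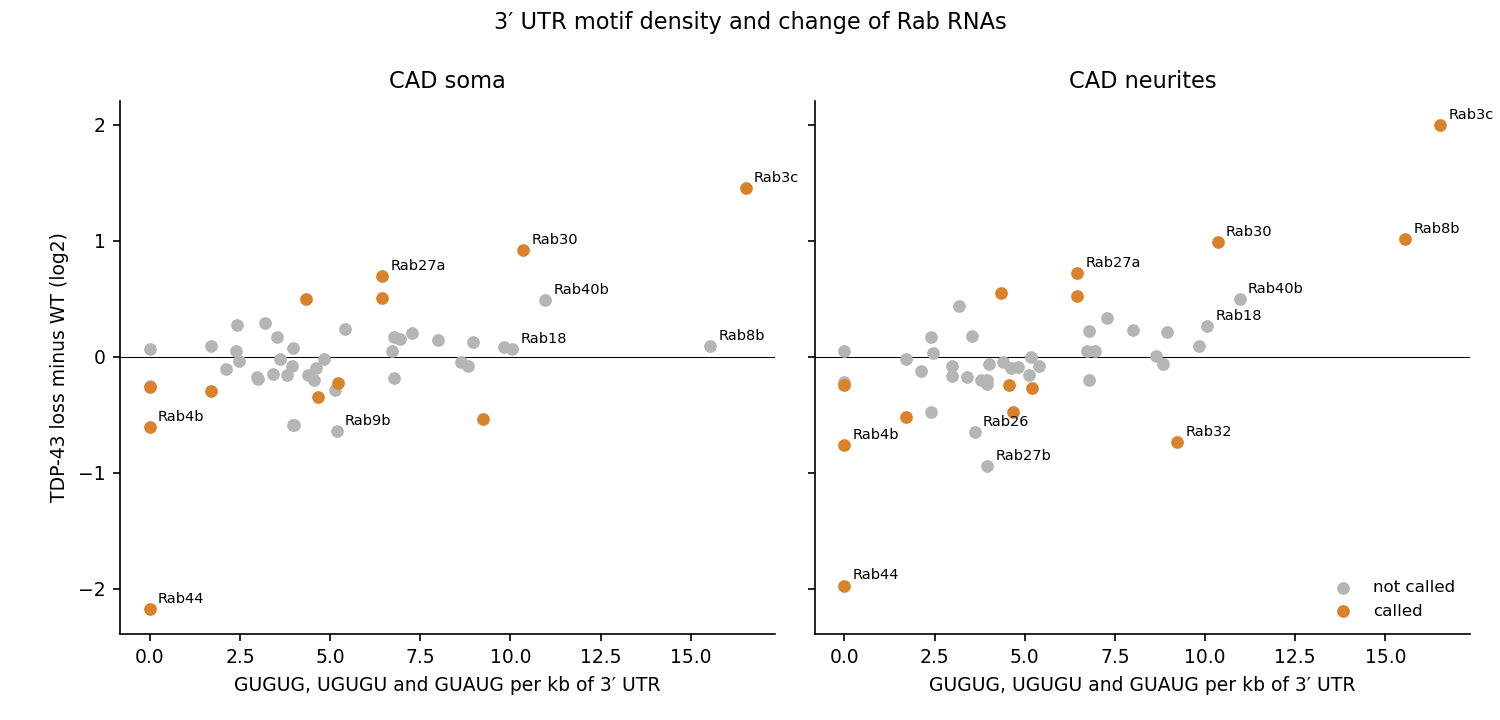
Motifs per kb of the longest 3′ UTR (x axis) against the log2 change after depletion (y axis) in CAD soma and CAD neurites, with a point for each tested member. Rab3c and Rab8b lie at the right, with Rab3c highest in both panels and Rab8b high in neurites.

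Partner genes of the Rab cycle were taken from lists. Of the prenylation and recycling genes, Rabggtb (ENSMUSG00000038975), a subunit of the enzyme that prenylates Rabs, rose in CAD neurites by 0.29 (adjusted p = 0.0099), lost without replicate 1 or 2 (adjusted p = 0.060 and 0.23). Gdi2 (ENSMUSG00000021218) rose in N2A soma by 0.42 (adjusted p = 0.0024), lost without replicate 2 or 3 (0.085 and 0.016).

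Of 33 exchange factors 31 were tested in each line. Called higher and lower were 3 and 4 in CAD soma (11.2% and 11.6% of all genes), 3 and 9 in CAD neurites (11.8% and 13.5%), 0 and 4 in N2A soma (10.9% and 5.15%) and 0 and 9 in N2A neurites (6.48% and 5.1%). Higher in N2A soma and neurites were 5 and 3 at unadjusted p under 0.05 by edgeR, and DESeq2 called 2 and 0. In CAD soma Sbf2 rose by 0.51 (adjusted p = 3.7e-05) and Madd, an exchange factor of Rab3 and Rab27, by 0.35 (adjusted p = 0.00065), the latter lost without replicate 2 (adjusted p = 0.042). Dennd1a, which activates Rab35, changed by -0.50 (adjusted p = 0.00030). In CAD neurites Sbf2 changed by 0.52, Dennd4a by 0.43 (adjusted p = 5.3e-05) and Rgp1, of the Rab6 exchange factor, by -0.69 (adjusted p = 5.6e-06). Dennd2d changed by -1.25 (adjusted p = 0.0080) there, lost without replicate 1, 2 or 3 (adjusted p = 0.032, 0.13 and 0.045). In N2A the decreases given here are those of Dennd2d, -0.81 (adjusted p = 0.00072) in soma, and of the Rab5 exchange factor Rin1, -0.61 (adjusted p = 0.00055). Both were lost without replicate 2 (adjusted p = 0.092 and 0.10), and Dennd2d also without replicate 3 (0.018). Dennd2d and Rin1 were named in N2A neurites too, without values here.

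Of 44 effectors 40 were tested in each line. Higher and lower calls were 5 and 8 in CAD soma (11.2% and 11.6% of all genes), 6 and 10 in CAD neurites (11.8% and 13.5%), 4 and 2 in N2A soma (10.9% and 5.15%) and 5 and 2 in N2A neurites (6.48% and 5.1%). Myrip (ENSMUSG00000041794), which links Rab27a to myosin, had 20.96, 19.9 and 18.7 CPM in CAD control soma and 49.3, 46.8 and 45.2 CPM after depletion. The groups did not overlap, and Myrip rose by 1.25 (SE 0.11, adjusted p = 2.8e-07) in CAD soma, 1.58 (SE 0.11, adjusted p = 1.4e-08) in CAD neurites, 1.19 (SE 0.14, adjusted p = 1.7e-05) in N2A soma and 1.78 (SE 0.13, adjusted p = 3.4e-07) in N2A neurites. Rab11fip1, an effector of Rab11, rose in CAD soma by 0.77 (adjusted p = 4.3e-07), while Rab11fip5, another, fell there by 0.89 (adjusted p = 1.1e-07). Rims1, a Rab3 effector of the presynaptic active zone, changed by -0.99 (adjusted p = 1.4e-06) in CAD soma. In N2A soma Osbpl1a, a Rab7 effector, rose by 0.92 (adjusted p = 0.00032), lost without replicate 2 (adjusted p = 0.023), and Ehbp1l1, an effector of Rab8, changed by -0.97 (adjusted p = 7.1e-05), also lost without replicate 2 (0.028).

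LR change calls among effectors were 1 higher (0.225% of all genes) and 2 lower (0.208%) in CAD. Fyco1 (ENSMUSG00000025241), which couples Rab7 vesicles to kinesin, had 207, 264 and 188 CPM in CAD control neurites and 52.5, 69.96 and 66.5 CPM after depletion. Depleted libraries were all lower, a neurite change of -1.80 (SE 0.13, adjusted p = 2.8e-08) and an LR change of -1.17 (adjusted p = 0.0049). That LR call was lost without replicate 1, 2 or 3 (adjusted p = 0.035, 0.040 and 0.0101). In N2A neurites Fyco1 had 33.6, 36.5 and 33.1 CPM and 73.96, 78.7 and 38.6 CPM, a rise of 0.89 (SE 0.19, adjusted p = 0.0030) lost without replicate 1 or 2 (0.052 and 0.072). Its N2A LR difference of 1.25 (adjusted p = 0.030) was not called, but was without replicate 3 (1.52 (adjusted p = 0.0018)). Plekhm2, which binds kinesin on lysosomes, had a CAD LR change of -0.79 (adjusted p = 0.0060), lost without replicate 1 or 2 (0.046 and 0.26), and Gcc2, a golgin that binds Rab6 and Rab9, of 0.94 (adjusted p = 0.00094), lost without replicate 2 or 3 (0.016 and 0.011).

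Of 40 GAPs 37 were tested in CAD and 34 in N2A. Called higher and lower were 7 and 2 in CAD soma (11.2% and 11.6% of all genes), 6 and 6 in CAD neurites (11.8% and 13.5%), 3 and 0 in N2A soma (10.9% and 5.15%) and 0 and 1 in N2A neurites (6.48% and 5.1%). At unadjusted p under 0.05 edgeR gave 0 lower in N2A soma and 4 higher in N2A neurites, and DESeq2 called 0 in both. Tbc1d9b (ENSMUSG00000036644), a GAP of recycling endosomes, had 767, 1005 and 758 CPM in CAD control neurites and 182, 231 and 211 CPM after depletion. Control libraries were all far higher, and Tbc1d9b changed by -2.02 (SE 0.11, adjusted p = 1.4e-09) in neurites and -1.84 (SE 0.15, adjusted p = 3.6e-06) in LR, the 1 GAP called for a lower LR after depletion (0.208% of all genes), where 8 of 37 were at unadjusted p under 0.05 and DESeq2 called 3. N2A neurite libraries overlapped, at 165, 189.7 and 154 CPM and 222, 219 and 128 CPM. Tbc1d31 and Tbc1d15, a GAP of Rab7, rose in CAD soma by 0.93 (adjusted p = 5.8e-08) and 0.76 (adjusted p = 3.3e-07). Tbc1d14, which acts in autophagy, changed by -0.35 (adjusted p = 0.00022) there, lost without replicate 2 (adjusted p = 0.023), and Evi5l by -0.33 (adjusted p = 0.0017), lost without replicate 2 or 3 (0.028 and 0.036). In the Q331K experiment none of the 8, 30, 37 and 36 tested genes of these lists was called by edgeR or DESeq2 for soma, neurite or LR change. At unadjusted p under 0.05 edgeR gave 8, 6 and 5 of them in that order (7.14%, 9.84% and 4.34% of all genes).

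Rab13 was left out by the rule and is given for comparison. Its LR was 4.24 (adjusted p = 4.5e-13) in CAD controls, 2.09 (adjusted p = 2.1e-06) in N2A controls and 3.45 (adjusted p = 1.1e-10) with the WT transgene, above that of every tested member in each. After depletion Rab13 changed by -0.47 (SE 0.0986, adjusted p = 0.0014) in CAD neurites, lost without replicate 1 (adjusted p = 0.016), and its CAD LR difference of -0.49 (adjusted p = 0.25) was not called.

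Cell identity was checked with marker lists. Of 10 neuronal genes 7 were at 1 TPM or more in every group, with a summed level of 1252, 1716 and 1857 TPM in CAD control soma, 753, 874 and 997 TPM in N2A control soma and 1240, 1296 and 1202 TPM in WT transgene soma. Tubb3 was the most abundant in all groups but the transgene neurites, where Stmn2 was. Of 6 catecholaminergic genes 5 were at 1 TPM or more in CAD control soma, led by Phox2a and summing to 289.6, 412 and 434 TPM. In N2A control soma 5 were as well, also led by Phox2a, and the sum was 188, 226 and 265 TPM in controls and 335, 358 and 386 TPM after depletion. Those groups did not overlap, and the part of this rise in the N2A Rab changes was not tested. Microglial genes (3) summed to at most 1.74 TPM in any library and endothelial genes (2, mostly Pecam1) to at most 6.59 TPM. All 3 microglial genes were at 0 TPM in WT transgene soma. Fibroblast genes (5) summed to at most 4.29 TPM in CAD and N2A libraries and to 22.3, 24.4 and 21.6 TPM in WT transgene soma, most of it Dcn, and their part in the Rab levels of that experiment was not tested.

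Summed Rab levels after depletion overlapped those of controls. Depleted CAD soma had 1637, 1935 and 2292 TPM and neurites 1016, 1098 and 982 TPM, against 1557, 1626 and 1772 TPM and 712, 1354 and 1194 TPM in depleted N2A cells. In each comparison at least 1 depleted library lay within the control range. By replicate number, which paired the libraries in CAD soma, N2A soma and N2A neurites, the sum was lower after depletion in 3 of 3 pairs in CAD soma, higher in 2 of 3 in N2A soma and higher in 3 of 3 in N2A neurites. Q331K soma had 2644, 2697 and 2767 TPM and Q331K neurites 1736, 1772 and 1566 TPM, also overlapping the WT transgene.

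Genes named after members as opposite-strand genes (Rab10os and Rab26os) or pseudogenes (Rab7-ps1, Rab5a-ps, Rab11b-ps2 and Rab9b-ps1) were not members. Their part in the values of Rab10, Rab26, Rab7, Rab5a, Rab11b and Rab9b was not tested.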

How the data were processed

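Soma and neurite RNA of 36 mouse libraries was read from transcript tables that the authors made with cutadapt and Salmon (versions not stated) on mm10; for every transcript the deposited tables give a TPM and an estimated count. Both were summed to genes with GENCODE vM21, and estimated counts were rounded. The study's methods name GENCODE 17 for these tables, so transcripts annotated may differ between the releases. Genes were filtered by edgeR filterByExpr, scaled by TMM and tested with edgeR 4.0.16 (quasi-likelihood F test, R 4.3.3) at a Benjamini-Hochberg adjusted p under 0.01, with DESeq2 1.42.0 as the other tool. The tests were tried on simulated data, with no outcome reported here, so nothing in the text rests on that trial. At most 0.13% of estimated counts in a library had no gene.

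Members and lists were chosen with earlier results of these data known. Members were named by a rule: those called for a change, the most extreme LR values and LR changes and the highest levels, all at 1 TPM or more where not called, the densest 3′ UTRs and shifted transcripts. Rab13, Tbc1d9b and Fyco1 were named by the same plan. Rab3a, Rab35 and other values outside it were chosen after they were seen. Partner and marker lists were written from general knowledge, and some genes of these lists are not reported here.

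Each replicate was left out in turn. Other alternatives were scaling by the upper quartile, an adjusted p under 0.05, DESeq2, and a minimum of 10 counts per library or no filter. Further alternatives were a term for the replicate number, and a term for the replicate number within each genotype. Tests of soma and neurite changes between lines were added after seeing the data. The pairing of replicate numbers was checked by the correlation of deviations from group means, from the data and not the labels. It was over 0.1 in every pair for soma with neurite in CAD controls (r from 0.35 to 0.51) and N2A controls (0.17 to 0.43), and for control with depleted samples in CAD soma, N2A soma and N2A neurites and WT transgene with Q331K soma.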

Additional observations from a re-analysis of the deposited data

Results flagged for a closer look

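The 12 differences between CAD and N2A in the change after TDP-43 depletion, found in tests added after the data had been seen, are given as log2 CAD minus N2A. In soma they were -1.35 (adjusted p = 0.00040) for Rab44, -0.67 (adjusted p = 0.00052) for Rab12, -0.52 (adjusted p = 0.0083) for Rab3d, -0.51 (adjusted p = 0.0034) for Rab34 and -0.48 (adjusted p = 0.0075) for Rab35. In neurites the difference was below 0 for Rab44 with -1.19 (adjusted p = 0.0046), Rab36 with -0.55 (adjusted p = 0.0029) and Rab12 with -0.48 (adjusted p = 0.00998). Of these, Rab36 was called higher in N2A and was not called in CAD. The neurite difference was above 0 for Rab39b with 1.03 (adjusted p = 0.0018), Rab39 with 0.81 (adjusted p = 0.0070), Rab8b with 0.65 (adjusted p = 0.0093) and Rab28 with 0.52 (adjusted p = 0.0042). Of these, Rab39b and Rab8b were called higher in CAD only, and Rab39 and Rab28 lower in N2A only. Each of the 12 lost its call without replicate 2, 8 without replicate 1 and 8 without replicate 3, and all 12 were called by DESeq2. Upper-quartile scaling removed 4 of the calls (Rab34, Rab35 and Rab3d in soma and Rab36 in neurites), no filter on low counts 3 and the minimum of 10 counts 1. The cause of these differences was not tested.

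Limits apply to all values. The TetOff cells of each line were clonal and the number of clones is not known here, so that a difference between lines is one between those cells. Mitochondrial shares of neurite RNA differed between lines and genotypes. TMM scaling sets the median gene to the same level in soma and neurite, and a ratio near 0 therefore means near the median gene. Transcript shares rest on assignment between overlapping transcripts. Rab proteins were not measured.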

How the results depend on the processing

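Of 163 alternatives of the main counts and medians 113 were labelled the same, 23 stronger and 17 weaker, 7 moved a median and 3 reversed its sign. Counts within 1.5 times of each other were labelled the same, such as 30 and 21 CAD LR calls, and medians that differed by less than the SD over replicate numbers. The label compares the size of a count, and not which members were called or in which direction. Soma differences between lines were labelled the same with upper-quartile scaling, at 5 and 5 calls. Of those 5 calls only 2 were shared, and 3 were upward where TMM gave 0. The Q331K change counts, at 0 under every alternative, are also among those labelled the same. The 3 reversals were the medians of the deposited TPM ratio, -1.40 in CAD, -0.68 in N2A and -0.75 with the WT transgene, against 0.34, 0.89 and 0.24 after TMM scaling. Members lay above all genes in each (by 0.37, 0.97 and 0.24). The cause of the lower raw ratios was not tested.

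Medians of LR moved in CAD from 0.34 to 0.25 with upper-quartile scaling, 0.31 with no filter and 0.25 with the minimum of 10 counts, and in N2A from 0.89 to 0.59 with upper-quartile scaling and 0.65 with the minimum of 10 counts, where members lay 0.64 above all genes against 0.92. Without a replicate they ran from 0.28 to 0.37 in CAD, 0.79 to 0.99 in N2A and 0.23 to 0.26 with the WT transgene.

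Counts of called members are given here with the lowest and highest on leaving out a replicate, and with other alternatives where these moved a count by over 1.5 times. LR calls in CAD went from 30 to 14 and 23, in N2A from 38 to 29 and 36, and with the WT transgene from 13 to 3 and 13, or 20 at an FDR of 0.05. CAD soma calls went from 12 to 5 and 9. CAD neurite calls went from 14 to 9 and 11, or 22 at an FDR of 0.05. The single CAD LR change call went to 0 and 1, or 2 with no filter. N2A soma calls went from 6 to 1 and 6, with 14 at an FDR of 0.05, 11 by DESeq2 and 11 with no filter. N2A neurite calls went from 7 to 1 and 4, with 15 at an FDR of 0.05, 11 by DESeq2 and 11 with no filter. N2A LR changes went from 0 by edgeR (24 at unadjusted p under 0.05) to 8 at an FDR of 0.05, 13 by DESeq2 and 8 with no filter. Q331K changes were 0 by edgeR in soma, neurites and LR (3, 3 and 2 at unadjusted p under 0.05, 0 by DESeq2) and without each replicate.

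Differences between lines in LR change were 0 by edgeR, with 21 members at unadjusted p under 0.05 (18.5% of all genes). They went to 1 at an FDR of 0.05, 2 by DESeq2, 2 with no filter and 1 with the replicate number as a term. Soma differences, added after seeing the data, went from 5 to 0 and 5 without a replicate, 17 at an FDR of 0.05, 10 by DESeq2 and 14 with no filter. Neurite differences, also added, went from 7 to 0 and 3 without a replicate, 12 at an FDR of 0.05, 12 by DESeq2, 13 with upper-quartile scaling and 14 with the minimum of 10 counts.

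For single members and partners, 1995 of 2343 alternatives of called values were called too and 348 were not, while 29 of 568 alternatives of values not called were called, and none of these reversed a direction among called values. The replicate number as a term removed the call of Dennd2d in CAD neurites (adjusted p = 0.0101). The replicate number within genotype as a term removed the LR change calls of Plekhm2 (adjusted p = 0.011) and Tardbp (0.011) in CAD. Numbers did not pair the other groups: same-numbered correlations ran from -0.035 to 0.28 for depleted CAD soma with neurites, 0.094 to 0.48 for CAD neurites between genotypes, 0.077 to 0.47 for depleted N2A soma with neurites, 0.049 to 0.21 and -0.0060 to 0.21 within the WT transgene and Q331K cells, and -0.10 to 0.20 between their neurites. The replicate number as a term raised the N2A soma calls from 6 to 9, with Rab8b, Rab10 and Rab12 added, and the N2A neurite calls from 7 to 10, with Rab39b, Rab11b and Rab14. LR calls with the WT transgene went from 13 to 16 (Rab1b, Rab5b and Rab21 added), and to 17 with the replicate number within genotype as a term (Rab15 too). In CAD controls they went from 30 to 32 with either term, with Rab10 and Rab39b added by both. Rab24 was added and Rab5b removed by the number within genotype. In N2A controls Rab8b was added and Rab40b removed by both, and Rab27a added by the number within genotype. In the other genotype LR calls went from 28 to 29 and 30 in CAD and from 16 to 19 in Q331K cells. In N2A they stayed at 31 or went to 29 (Rab32 and Rab5b removed by the number within genotype). Differences between lines went from 5 to 7 in soma (Rab10 and Rab39b added) and from 7 to 8 in neurites (Rab1a). Among partners followed, the replicate number added a call of Fyco1 for LR in N2A controls.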
